A study of Mus musculus with 9 samples.

Results

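The genes described here encode the phase II conjugation enzymes of mouse liver outside the Ugt1a locus. They are the protein-coding genes with a symbol that starts with Ugt2, Ugt3, Gsta, Gstk, Gstm, Gsto, Gstp, Gstt, Gstz or Sult, and they were found by matching Ensembl identifiers to the GENCODE vM21 annotation of GRCm38. The rule gave 55 of the 55335 genes in the deposited table: 12 UDP-glucuronosyltransferase (Ugt) genes, 22 glutathione S-transferase (Gst) genes and 21 sulfotransferase (Sult) genes. In the liver, these enzymes attach a polar group to drugs, steroids, bile acids and products of oxidation so that they can be excreted. UGT enzymes add glucuronic acid, GST enzymes add glutathione, and SULT enzymes add a sulfate group taken from the donor PAPS. Many Gst genes carry antioxidant response elements, the DNA sites of the transcription factor NRF2.

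Liver RNA was sequenced from 9 male B6D2F2 mice aged 20 weeks and fasted for 4 h, with 3 mice in each of 3 groups. Sex and the chow diet are as the study states them. NC mice were conceived naturally, IVF mice came from fresh embryos fertilised in vitro, and FET mice came from such embryos that had been slow-frozen and thawed. Embryos of B6D2F1/J parents were transferred at the 2-cell stage to pseudopregnant ICR females, so that both IVF and FET mice were carried by ICR dams and NC mice were not, and the conception method and the dam cannot be told apart. Litters are not given, and the p-values measure the spread between these mice. Each value is FPKM, the fragments of a gene scaled to its length and to the mapped fragments of its library. Values for single mice are given in the order NC mice 1, 5 and 6, IVF mice 2, 3 and 4, and FET mice 2, 3 and 4, and errors are SD with n = 3 unless called SE.

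The 9 libraries differed widely in make-up and depth. Nuclear protein-coding genes took between 4.36% (IVF mouse 2) and 29.3% (IVF mouse 4) of the summed FPKM, and FET mouse 4 stood at 4.41%. Ribosomal RNA-like entries, which include the mitochondrial ribosomal RNAs mt-Rnr1 and mt-Rnr2, took between 4.63% and 82.3%. The mitochondrial shares given below hold mt-Rnr1 and mt-Rnr2 as well, so these shares overlap and do not add up. The steps between low FPKM values gave roughly 2020000 to 2930000 mapped fragments in the FET mice, against 3900000 to 13400000 in the other mice. For this reason fold changes are given on the deposited scale and on a rescaled one. For the rescaled values of single mice, FPKM was divided by the summed FPKM of nuclear protein-coding genes and multiplied by 1000000. The fits of rescaled values used a smaller shared multiplier before 1 was added and log2 was taken. Rescaled fold changes of low genes are therefore smaller than the rescaled values of single mice would give. All 8 hepatocyte markers were above 0 in every mouse, including Alb, which encodes albumin. NC mice 5 and 6 carry sample-sheet numbers apart from those of the other 7 mice, whose numbers run from 67 to 76, and the labels do not say what these numbers mark. These 2 mice had 4.63% and 6.05% of their FPKM on ribosomal RNA-like entries, where the other 7 had 20.7% to 82.3%, they had the largest mitochondrial shares (55.3% and 51.9%, against 27.6% to 41.5%), and their libraries were the deepest. They are 2 of the 3 NC mice, so every difference from the NC group below also sets these libraries against the rest, and the part of this in the results was not tested. With NC mouse 1 as the only NC mouse, the median log2 fold change of the conjugation genes in FET against NC was -0.63 deposited and -0.52 rescaled, against -0.15 and -0.04 over all genes. In IVF against NC it was -0.14 and -0.28, against 0.04 and -0.07 over all genes.

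**Figure D1:**
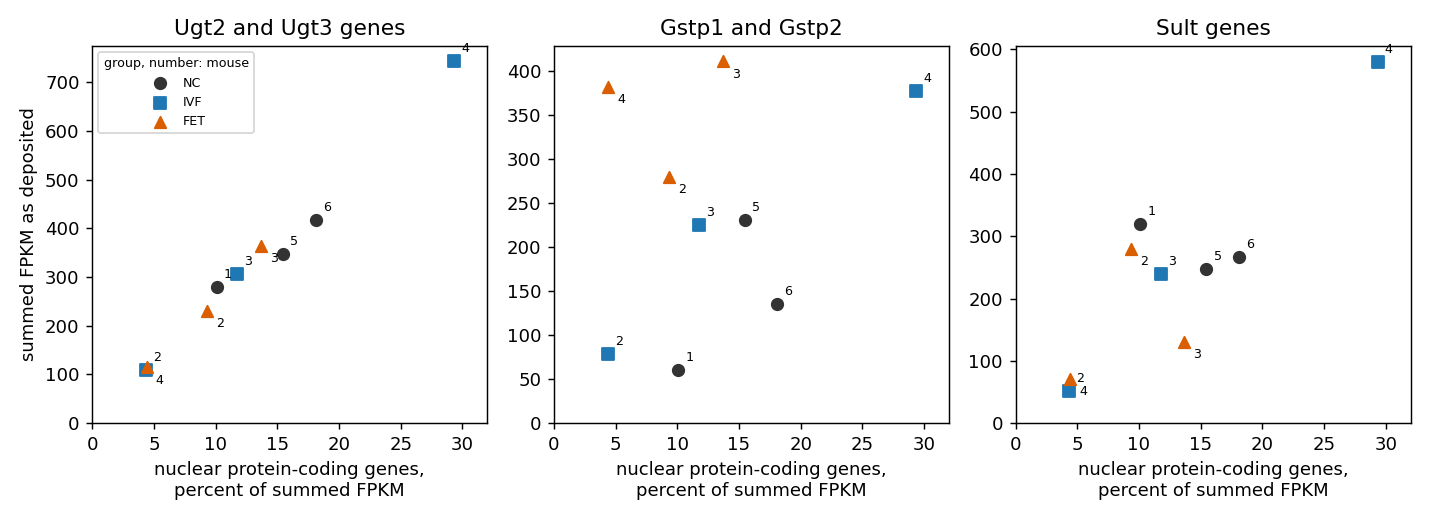
Summed deposited FPKM of the Ugt2 and Ugt3 genes, of Gstp1 plus Gstp2, and of the Sult genes (vertical axes, linear) against the percent of summed FPKM on nuclear protein-coding genes (horizontal axis), 1 point per mouse. The Ugt sum climbs with the nuclear protein-coding share from 109.8 FPKM at 4.36% to 742 FPKM at 29.3%, whereas the 3 FET mice reach 279.7 to 411 FPKM for Gstp1 plus Gstp2 at shares of 4.41% to 13.7%.

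Of the 55 genes, 44 were above 0 in at least 1 mouse, 27 were above 0 in all 9 mice, and 36 reached a mean of 1 FPKM and were tested. The 11 genes listed at 0 in every mouse were Sult2a1, Sult2a2, Sult2a3, Sult2a4, Sult2a5, Sult2a6, Sult2b1, Sult3a1, Sult3a2, Sult6b1 and Ugt2a2. Most of them are Sult2a and Sult3a genes, which are known as female-biased genes of mouse liver. Another 8 genes were above 0 in some mice without reaching the mean of 1 FPKM: Gsto2, Gstt4, Sult1c1, Sult1c2, Sult1e1 (the estrogen sulfotransferase), Sult4a1, Sult6b2 and Ugt2a1. Thus 20 of 22 Gst genes and 10 of 12 Ugt genes were tested, against 6 of 21 Sult genes. Sult2a7 and Ugt2b38 reached that mean only through the IVF mice, and Gstt3 only through the NC mice, so that a lower value in the other groups was built into their selection and their fold changes are given as a description. They remain among the 36 genes counted below, and the shares over all genes rest on the same filter. Since genes that are in general use can also be listed at 0 in the shallow libraries, a 0 says only how the gene is listed.

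The summed FPKM of all 55 genes was 1109.7, 1364 and 1759 FPKM in the NC mice, 387, 1176 and 2490.3 in the IVF mice, and 1049.8, 1386 and 784 in the FET mice. As a share of nuclear protein-coding FPKM the same sum was 1.18, 0.988 and 1.12% in the NC mice, 0.987, 1.08 and 1.08% in the IVF mice, and 1.15, 1.07 and 1.73% in the FET mice. The conjugation genes thus held near 1% of this RNA in 8 of the 9 mice, with FET mouse 4 above them. Left without Gstp1 and Gstp2, FET mouse 4 came to 0.886%, where the other mice spanned 0.754% to 1.12%, and the NC and FET groups overlapped. On the deposited scale this remaining sum was lower in every FET mouse (402 to 975 FPKM) than in every NC mouse (1049.9 to 1624 FPKM). With median-ratio scaling it was so too, at 665 to 766 against 806 to 1067.5.

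The make-up of this RNA differed between the mice. The pi class of Gst genes made up 6.20, 18.7 and 8.71% in the NC mice, 20.5, 19.7 and 15.8% in the IVF mice, and 26.6, 30.4 and 49.6% in the FET mice. All 3 FET mice stood above all 6 other mice in this share, and the largest share was in FET mouse 4. The mu class made up 25.6, 21.3 and 37.1% in the NC mice, 25.8, 19.8 and 16.8% in the IVF mice, and 13.1, 21.6 and 19.0% in the FET mice. The Ugt genes made up 25.2, 25.4 and 23.7% in the NC mice, 28.4, 26.1 and 29.8% in the IVF mice, and 21.98, 26.3 and 14.6% in the FET mice, and the Sult genes made up 28.8, 18.1 and 15.2% in the NC mice, 13.5, 20.4 and 23.3% in the IVF mice, and 26.7, 9.45 and 9.03% in the FET mice. The mu, Ugt and Sult shares overlapped between the NC and FET groups. The other Gst genes made up 14.1, 16.5 and 15.3% in the NC mice. They made up 11.8, 13.9 and 14.3% in the IVF mice, and 11.6, 12.4 and 7.81% in the FET mice. In this share every FET mouse was below every NC mouse.

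**Figure D2:**
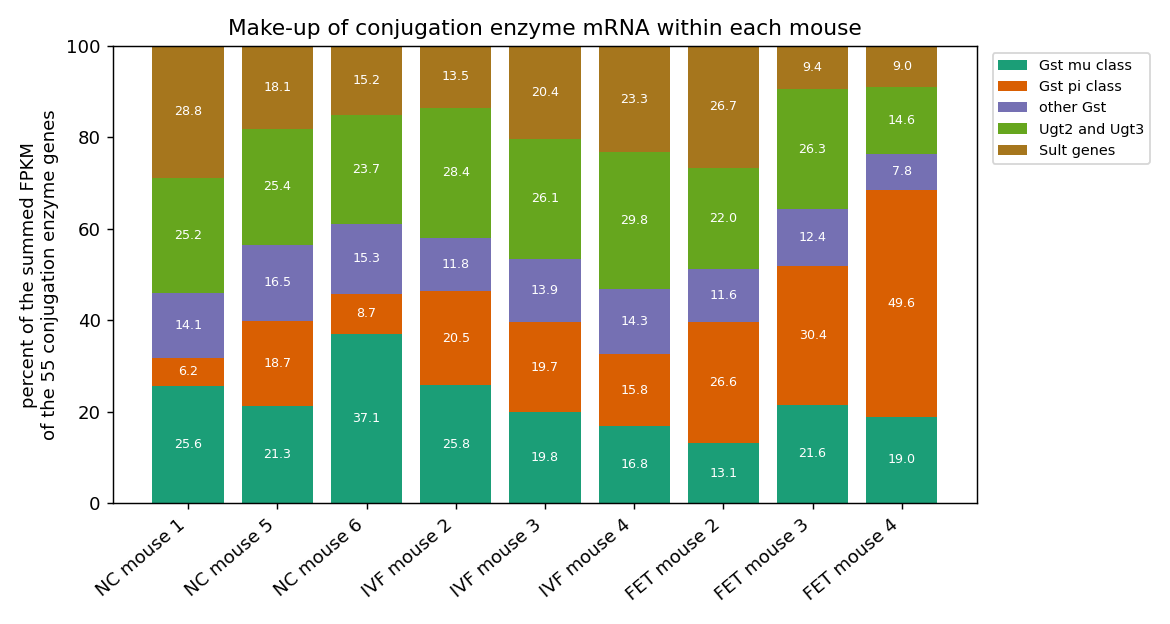
Percent of the summed FPKM of the 55 conjugation enzyme genes (vertical axis) taken by each class in each of the 9 mice, with the values printed in the bars. The pi class takes 26.6% to 49.6% in the FET mice and 6.2% to 20.5% in the other mice.

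No conjugation gene passed the adjusted threshold in any comparison. In limma fits of log2(FPKM + 1) over all 6755 genes with a mean of at least 1 FPKM, 16 genes (0.237%) were called in FET against NC, 4 (0.0592%) in IVF against NC and 6 (0.0888%) in FET against IVF, and 0 of the 36 conjugation genes was among them. At an unadjusted p under 0.05, 8 of the 36 were found in FET against NC, 1 in IVF against NC and 2 in FET against IVF, where the shares of all genes were 12.0%, 4.07% and 4.01%. On the rescaled values limma called 18 genes (0.266%), 0 (0.0%) and 7 (0.104%) in these comparisons, again with 0 conjugation genes, and 11, 4 and 6 of the 36 had an unadjusted p under 0.05 where the shares of all genes were 16.7%, 5.43% and 9.43%. Of the genes selected through 1 group, Gstt3 is among the 8 and the 11 in FET against NC. Sult2a7 is among the 2 and the 6 in FET against IVF, and Ugt2b38 is among the 6. In the alternative fits that were run, no conjugation gene was called either, except Gsta2 in FET against NC without FET mouse 2 (adjusted p = 0.015 with limma).

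The log2 fold changes of the 36 genes lay lower than those of all genes in FET against NC. Their median was -0.96 on the deposited scale, where the median over all genes tested was -0.46, and 32 of the 36 were below 0 where 74.4% of all genes were. After rescaling, the median over all genes moved to -0.06, that of the conjugation genes was -0.48, and 26 of the 36 were below 0 where 53.4% of all genes were. Relative to all genes, the median thus lay lower by 0.50 and 0.43 log2 units on these scales. In IVF against NC the median of the conjugation genes was -0.41 deposited and -0.18 rescaled, against -0.25 and -0.07 over all genes, and 24 and 21 of the 36 were below 0, where 68.9% and 55.8% of all genes were. This deposited median moved with single mice: it was 0.12 without IVF mouse 2, against 0.22 over all genes, -1.01 without IVF mouse 4, against -0.63, and -0.24 without NC mouse 6, against -0.14. In FET against IVF it was -0.53 deposited and -0.27 rescaled, against -0.20 and 0.02 over all genes, and 31 and 26 of the 36 were below 0, where 65.4% and 48.6% of all genes were. Here the deposited median was 0.10 without IVF mouse 4, against 0.16 over all genes, and -1.14 without IVF mouse 2, against -0.67. It was -0.83 without FET mouse 3, against -0.40, and -0.27 without FET mouse 4, against 0.06.

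**Figure D3:**
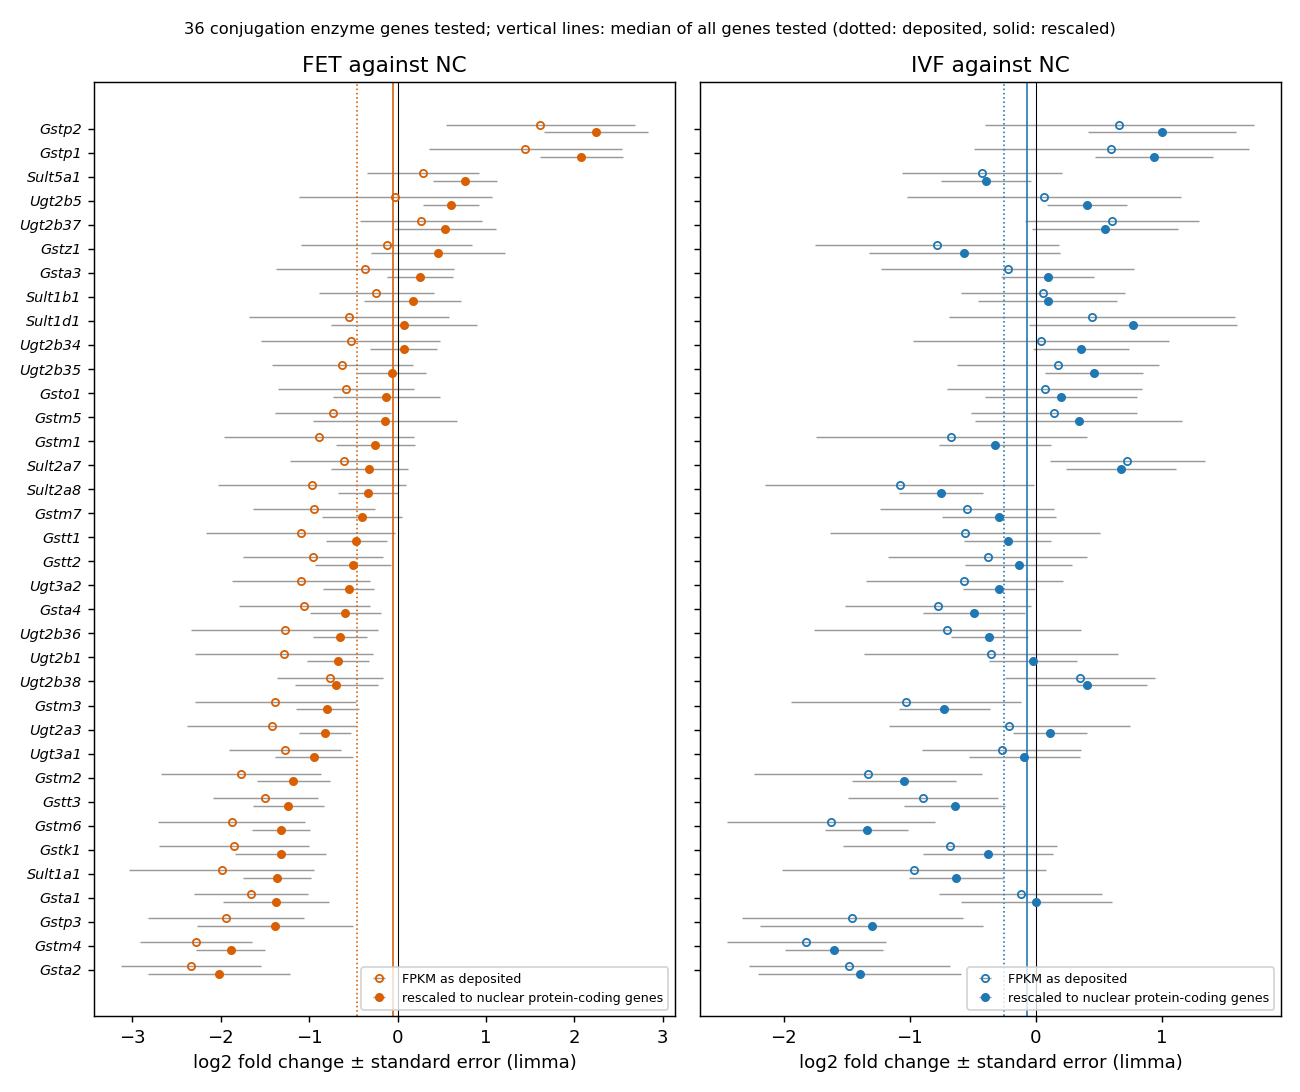
log2 fold change with its SE (horizontal axis) of each of the 36 conjugation genes tested, in FET against NC and in IVF against NC, with open points for deposited and filled points for rescaled FPKM. Vertical lines mark the median over all genes tested, and Gstp1 and Gstp2 lie farthest to the right while Gsta2 and Gstm4 lie farthest to the left in FET against NC.

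A second description asks for which genes the mice of 2 groups did not overlap. On the deposited scale, every FET mouse was lower than every NC mouse for 10 of the 36 genes, where this held for 17.1% of all genes tested. They were Gstm2, Gstm3, Gstm4, Gstm6, Gstm7, Sult1a1, Sult2a8, Ugt2a3, Ugt2b36 and Ugt3a1. Every FET mouse was higher than every NC mouse for Gstp1 and Gstp2 alone, 2 of the 36, where this held for 1.98% of all genes. After rescaling, 9 genes were lower in every FET mouse (11.5% of all genes): Gstm2, Gstm4, Gstm6, Gstt1, Gstt3 (tested only through the NC mice), Sult1a1, Ugt2a3, Ugt2b36 and Ugt3a2. Higher in every FET mouse were then 4 (9.99% of all genes): Gstp1, Gstp2, Sult5a1 and Ugt2b5. Without FET mouse 4 and IVF mouse 2, 12 rescaled genes were lower (19.3% of all genes) and the same 4 were higher (16.5%). Without FET mouse 2, 12 were lower (19.3%) and these 4 were again higher (15.9%). On the deposited scale the counts were 10 lower (18.7%) and 3 higher (14.0%) without FET mouse 4 and IVF mouse 2, and 14 lower (25.3%) and 2 higher (3.72%) without FET mouse 2.

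Between the IVF and NC mice the counts depended on IVF mouse 2. With all mice and deposited FPKM, Gstm4 was lower in every IVF mouse, 1 of the 36 where this held for 5.46% of all genes, and 0 of the 36 were higher in every IVF mouse (0.77% of all genes). Without IVF mouse 2, Gstm4 remained lower (5.8% of all genes), and Gstp1, Sult1b1, Sult1d1, Sult2a7, Ugt2b34 and Ugt3a1 were higher (6 of the 36, with 19.8% of all genes). After rescaling, 10 were lower in every IVF mouse (11.3% of all genes): Gsta2, Gstm2, Gstm3, Gstm4, Gstm6, Gstp3, Gstt1, Sult1a1, Sult2a8 and Ugt3a2. Gstp1 was the 1 gene higher in every IVF mouse (4.87% of all genes). In the rescaled values without IVF mouse 2, 12 were lower (1216 of the 6755 genes tested) and 4 were higher (14.3%). Between the FET and IVF mice, Gsta1 was lower in every FET mouse on the deposited scale (1 of the 36, with 2.56% of all genes) and Gstp2 was higher (1 of the 36, with 1.27% of all genes). Without FET mouse 4 and IVF mouse 2 these deposited counts were 13 lower (27.7% of all genes) and 1 higher (6.13%), and without FET mouse 2 they were 2 lower (5.11%) and 1 higher (2.71%). Rescaled, Gsta1, Sult1a1, Ugt2a3, Ugt2b1 and Ugt2b38 (tested only through the IVF mice) were lower in every FET mouse (5 of the 36, with 6.01% of all genes), and Gstp1, Gstp2 and Sult5a1 were higher (3 of the 36, with 6.72% of all genes). Without FET mouse 4 and IVF mouse 2, 11 were lower (17.8% of all genes) and these 3 were higher (16.9%). Without FET mouse 2, 8 were lower (11.5%) and 6 were higher (12.2%), Gstm2, Gstm6 and Gstp3 being the additional ones.

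Among the glutathione S-transferases, Gstm1, which encodes a mu class GST that conjugates many electrophiles, had the highest mean FPKM of the 55 genes. It was at 222, 198 and 529 FPKM in the NC mice, 86.3, 196 and 338 in the IVF mice, and 110.5, 259 and 127 in the FET mice. The groups overlapped, on the rescaled values as well. Its relatives lie beside it in a cluster on chromosome 3 (GRCm38), from Gstm5 at chr3:107895821-107898686 to Gstm4 at chr3:108040408-108044894.

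Gstm2 was at 17.9, 30.0 and 38.1 FPKM in the NC mice, 3.20, 11.3 and 26.7 in the IVF mice, and 3.90, 15.0 and 6.34 in the FET mice. Gstm3 was at 20.8, 24.3 and 35.4 FPKM in the NC mice, 4.96, 12.7 and 27.8 in the IVF mice, and 17.7, 10.2 and 4.45 in the FET mice, and Gstm6 was at 12.6, 21.4 and 28.9 FPKM in the NC mice, 2.38, 5.21 and 13.8 in the IVF mice, and 3.30, 9.55 and 3.06 in the FET mice. All 3 were lower in every FET mouse than in every NC mouse, while the IVF mice spread across both groups. Rescaled, Gstm2 was 191, 217 and 243 in the NC mice, 81.8, 103 and 116.1 in the IVF mice, and 42.7, 116.2 and 139.7 in the FET mice. Rescaled Gstm6 was 134, 155 and 184 in the NC mice, 60.8, 47.7 and 59.9 in the IVF mice, and 36.1, 73.9 and 67.5 in the FET mice. For both, every IVF mouse and every FET mouse was then below every NC mouse, and the IVF and FET mice overlapped. For Gstm6 the log2 fold change was -1.87 in FET against NC (SE 0.83, adjusted p = 0.352 with limma) and -1.62 in IVF against NC (SE 0.83, adjusted p = 1.0), and rescaled it was -1.32 (SE 0.33, adjusted p = 0.131) and -1.34 (SE 0.33, adjusted p = 0.52). Rescaled Gstm3 separated the IVF mice alone, at 116.01 to 127 against 176 to 226 in the NC mice, since FET mouse 2 was at 194.

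Gstm4 (ENSMUSG00000027890) showed the smallest unadjusted p among the 36 genes in FET against NC and in IVF against NC. Its FPKM was 5.13, 7.55 and 10.2 FPKM in the NC mice, 0.492, 1.52 and 2.54 in the IVF mice, and 0, 2.20 and 0.608 in the FET mice. Rescaled it was 54.7, 54.7 and 65.2 in the NC mice, 12.6, 13.9 and 11.03 in the IVF mice, and 0, 17.1 and 13.4 in the FET mice, so that the IVF and FET mice together stood at 17.1 or less where the NC mice stood at 54.7 to 65.2. The log2 fold change of FET against NC was -2.28 (SE 0.63, adjusted p = 0.0865 with limma), and the rescaled one was -1.88 (SE 0.39, adjusted p = 0.0835). Over the 18 fits that hold Gstm4 it ranged from -3.77 to -1.69, with adjusted p from 0.0718 to 1.0. For IVF against NC it was -1.82 (SE 0.63, adjusted p = 0.538), and rescaled -1.60 (SE 0.39, adjusted p = 0.52). These values rest on few fragments, about 58, 154 and 233 in the NC mice, 7, 12 and 17 in the IVF mice, and 0, 11 and 3 in the FET mice. With NC mouse 1 alone as the NC group, the rescaled log2 fold change of FET against NC was -1.81 (SE 0.65, adjusted p = 0.786). The SE and p of such a fit come from the spread within the IVF and FET groups alone, and the lone NC mouse is assumed to vary like them. None of its transcripts' 100-base windows occurs in another annotated transcript.

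Gstm7 stood at 5.95 ± 0.344 FPKM in the NC mice, 4.27 ± 3.01 in the IVF mice and 2.67 ± 0.916 in the FET mice. Gstm5, which is known mainly from brain and testis, was at 0, 3.30 and 3.75 FPKM in the NC mice, 0.564, 3.35 and 3.07 in the IVF mice, and 0, 0 and 3.46 in the FET mice. Across the mu class, 7 of 7 genes tested had a log2 fold change below 0 in FET against NC, deposited, median-ratio scaled and rescaled, with 0 called by limma and medians of -1.38 deposited and -0.79 rescaled. Of the same 7 genes, 6 were below 0 in IVF against NC on these 3 scales, Gstm5 being the exception. In FET against IVF 7 of 7 were below 0 deposited and 5 of 7 rescaled.

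**Figure D4:**
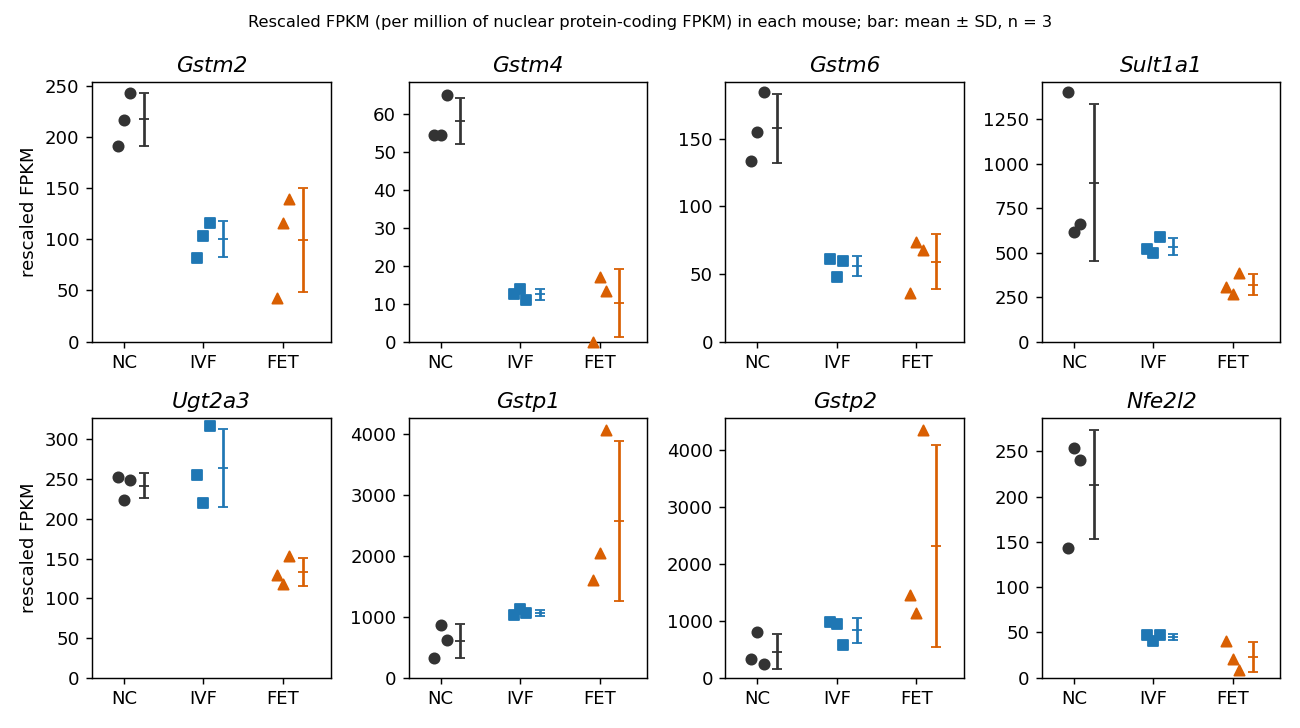
Rescaled FPKM (vertical axes, linear from 0) of 7 conjugation genes and of Nfe2l2 in each mouse, with the mean and SD of each group beside the points (n = 3). For Gstm2, Gstm4, Gstm6 and Nfe2l2 both embryo-transfer groups lie below the NC mice, for Ugt2a3 and Sult1a1 the FET mice lie below all others, and for Gstp1 and Gstp2 the FET mice lie above all others.

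Pericentral hepatocytes, which surround the central vein, are rich in many detoxifying enzymes. The summed rescaled FPKM of 7 pericentral markers, all above 0 in every mouse, was 8119 to 11799 in the NC mice, 6076 to 7820 in the IVF mice and 5985 to 6738 in the FET mice. These sums did not overlap between the NC mice and the others, although the rescaled values of single markers such as Glul and Cyp1a2 did. Of the conjugation genes, Gstm2, Gstm4, Gstm6, Gstt1, Sult1a1 and Ugt3a2 likewise did not overlap. These genes are named for that pattern, and the share of all genes with it was not counted. The medians of other hepatocyte markers were below 0 too. The rescaled median log2 fold change of FET against NC was -0.59 for the 7 pericentral markers, -0.78 for 7 periportal markers and -0.78 for 8 general hepatocyte markers, and in IVF against NC these medians were -0.31, -0.82 and -0.07. On the deposited scale they were -1.04, -1.38 and -1.42 in FET against NC, and -0.66, -1.16 and -0.42 in IVF against NC. The summed rescaled FPKM of the periportal markers was 1759 to 3105 in the NC mice, 1030 to 1792 in the IVF mice and 733 to 2238 in the FET mice, and that of the general markers overlapped between all groups. In bulk liver, fewer cells of a type and less RNA per cell cannot be told apart, and the part of these markers in the values of these genes was not tested.

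Sums of markers of other cells also differed between some groups, although limma called none of the markers tested in any comparison on either scale. The summed rescaled FPKM of 5 erythroid markers, all above 0 in every mouse, was 2425 to 9060 in the NC mice, 1686 to 2253 in the IVF mice and 3907 to 6292 in the FET mice, so that the IVF mice were below all others. Their rescaled median log2 fold change was -1.26 in IVF against NC and 1.20 in FET against IVF, and the deposited one was -1.59 and 0.91. For 6 Kupffer cell markers the sums were 177 to 233 in the NC mice, 150.4 to 321 in the IVF mice and 233 to 968 in the FET mice, with FET mouse 2 highest. The sums of 5 cholangiocyte markers were lower (39.5 to 44.8 against 68.2 to 123), and those of 6 stellate cell markers were higher (111.8 to 270.3 against 76.6 to 111.5), in every IVF mouse than in every NC mouse. The 4 neutrophil markers were listed at 0 in all 3 FET mice and in IVF mouse 3, and the endothelial sums overlapped between all groups. The part of these cells in the values of the conjugation genes was not tested.

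The values of Gstp1 and Gstp2, of the pi class, lay in the other direction. Gstp1 (ENSMUSG00000060803), which encodes the main pi class GST and is known to be higher in male than in female mouse liver, was at 29.7, 120.0 and 96.5 FPKM in the NC mice, 40.1, 123 and 245 in the IVF mice, and 147, 264 and 185 in the FET mice. Gstp2, its neighbour on chromosome 19, was at 30.2, 111 and 38.4 FPKM in the NC mice, 38.4, 102 and 132 in the IVF mice, and 133, 147 and 197 in the FET mice. For both genes all 3 FET mice were above all 3 NC mice, and for Gstp2 also above all 3 IVF mice. Rescaled, Gstp1 was 317, 869 and 616 in the NC mice, 1025, 1125 and 1062 in the IVF mice, and 1604, 2044 and 4077 in the FET mice. Rescaled Gstp2 was 322, 801 and 245 in the NC mice, 981, 935 and 575 in the IVF mice, and 1458, 1135 and 4342 in the FET mice. The FET mice were then above all 6 other mice for both genes, and for Gstp1 the IVF mice were also above all 3 NC mice.

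Neither gene passed the adjusted threshold. The deposited log2 fold changes of FET against NC were 1.44 (SE 1.09, adjusted p = 0.629 with limma) for Gstp1 and 1.61 (SE 1.07, adjusted p = 0.564) for Gstp2. Rescaled, they were 2.08 (SE 0.47, adjusted p = 0.0999) and 2.25 (SE 0.59, adjusted p = 0.145), and without FET mouse 4 and IVF mouse 2 they were 1.69 (SE 0.45, adjusted p = 0.157) and 1.66 (SE 0.53, adjusted p = 0.192). Both stayed above 0 in all 19 fits, from 0.84 to 2.87 for Gstp1 and from 1.25 to 2.55 for Gstp2, with adjusted p from 0.0999 to 1.0 and from 0.145 to 1.0. These fold changes and those of Sult1a1, Ugt2a3 and Ugt2b5, and the values of FET against NC for Gstp3, Gstk1 and Ugt3a1, were singled out after their values had been seen.

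A ratio within a mouse does not depend on how its library was scaled. Gstp1 plus Gstp2 divided by Gstm1 gave 0.269, 1.17 and 0.255 in the NC mice, 0.911, 1.15 and 1.12 in the IVF mice, and 2.53, 1.58 and 3.01 in the FET mice. All 3 FET mice were above the other 6. This ratio too was chosen after its values had been seen and is given without a test.

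Gstp1 and Gstp2 are close copies. Of the 100-base windows of annotated Gstp1 transcripts 25.1% also occur in Gstp2 transcripts, and of those of Gstp2 41.6% occur in Gstp1, so fragments could be split between them in ways the sources used here do not state. Their sum was 59.9, 231 and 135 FPKM in the NC mice, 78.6, 225 and 377 in the IVF mice, and 279.7, 411 and 382 in the FET mice. The FET mean was 2.52 times the NC mean on this scale and 4.62 times on the rescaled one. The rescaled ratio rested in part on FET mouse 4, at 0.842% of nuclear protein-coding FPKM where the other two FET mice were at 0.306% and 0.318%, and without it the ratio was 2.95. Gstp3, which shares no such window, was at 8.96, 24.0 and 18.4 FPKM in the NC mice, 0.701, 6.83 and 16.5 in the IVF mice, and 0, 9.75 and 6.96 in the FET mice. It had a log2 fold change of -1.46 in IVF against NC (SE 0.88, adjusted p = 1.0 with limma), or -1.301 rescaled (SE 0.88, adjusted p = 0.937), and of -1.94 in FET against NC (SE 0.88, adjusted p = 0.369), or -1.39 rescaled (SE 0.88, adjusted p = 0.458). Within the pi class, Gstp3 was thus not among the genes that were higher in the FET mice.

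The promoters of the 3 pi class genes are shown because Gstp1 and Gstp2 differed from Gstp3 in these values. They come from RefSeq on GRCm38.p6, run from 250 bases before to 50 bases after the RefSeq start, and lie on the minus strand at chr19:4037863-4038162, chr19:4042172-4042471 and chr19:4059398-4059697. Capitals mark the letters TGAGTCA, a form of the AP-1 element that was searched on both strands and picked after the promoters had been read.
Gstp1: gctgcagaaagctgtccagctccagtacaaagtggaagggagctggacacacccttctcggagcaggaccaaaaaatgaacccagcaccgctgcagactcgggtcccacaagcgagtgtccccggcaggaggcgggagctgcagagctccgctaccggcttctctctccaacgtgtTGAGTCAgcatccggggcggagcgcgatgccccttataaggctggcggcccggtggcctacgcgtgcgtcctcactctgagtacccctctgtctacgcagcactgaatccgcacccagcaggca
Gstp2: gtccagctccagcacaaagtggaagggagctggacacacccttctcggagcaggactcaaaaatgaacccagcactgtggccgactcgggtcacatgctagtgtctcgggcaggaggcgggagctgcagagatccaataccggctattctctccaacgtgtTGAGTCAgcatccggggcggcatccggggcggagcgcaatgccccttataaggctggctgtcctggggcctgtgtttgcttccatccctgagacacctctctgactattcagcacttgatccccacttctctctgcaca
Gstp3: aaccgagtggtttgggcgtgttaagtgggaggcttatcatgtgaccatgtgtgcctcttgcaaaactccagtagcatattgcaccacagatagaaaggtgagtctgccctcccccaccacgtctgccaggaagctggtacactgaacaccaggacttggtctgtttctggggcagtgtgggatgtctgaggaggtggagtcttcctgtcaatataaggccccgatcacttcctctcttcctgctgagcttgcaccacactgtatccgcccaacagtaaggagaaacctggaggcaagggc
The letters start at position -74 from the RefSeq start in Gstp1 and at -89 in Gstp2. In a global alignment Gstp1 and Gstp2 were identical at 86.2% of aligned bases, Gstp1 and Gstp3 at 156 of 260, and Gstp2 and Gstp3 at 61.6%. RefSeq promoters were matched for 48 of the 55 genes. These 48 genes have 59 promoters. TGAGTCA occurred in 8 of the 59, and in 5.2% of all 32851 promoters of this length. The 8 were those of Gstm5, Gstp1, Gstp2, Sult1b1, Sult1c1, Sult2b1, Ugt2a2 and Ugt2b37. Of these genes, Sult2b1 and Ugt2a2 were listed at 0 in every mouse, and Gstm5 had a log2 fold change below 0 in FET against NC. The core of the antioxidant response element, searched as TGACNNNGC on both strands, occurred in 3 of the 59 (those of Gsta3, Gstm5 and Gstm7) and in 12.4% of all promoters. The 2 motifs can overlap, and a match to letters describes the window only.

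Among the alpha class, Gsta3, which encodes the GST known to conjugate the epoxide of aflatoxin B1 in mice, was at 18.5, 41.3 and 44.2 FPKM in the NC mice, 7.85, 43.6 and 58.3 in the IVF mice, and 34.4, 29.2 and 15.2 in the FET mice. The groups overlapped on both scales. Gsta2 was at 6.65, 10.9 and 15.8 FPKM in the NC mice, 0.344, 2.53 and 13.9 in the IVF mice, and 8.13, 0.306 and 0 in the FET mice. FET mouse 2 stood among the NC mice while the other two FET mice were at or near 0. Its log2 fold change of FET against NC was -2.33 (SE 0.79, adjusted p = 0.223 with limma) and became -3.33 (adjusted p = 0.015) without FET mouse 2. Rescaled, FET against NC was -2.01 (SE 0.80, adjusted p = 0.258). The value for IVF against NC was -1.48 (SE 0.79, adjusted p = 1.0), and -1.40 rescaled (SE 0.80, adjusted p = 0.914). Over 18 fits it ranged from -2.40 to -0.67.

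Gsta1 was at 0, 3.55 and 5.93 FPKM in the NC mice, 0.235, 4.12 and 2.87 in the IVF mice, and 0, 0 and 0 in the FET mice. It was listed at 0 in all 3 FET mice and in NC mouse 1, and above 0 in all 3 IVF mice. The log2 fold change was -1.66 in FET against NC (SE 0.64, adjusted p = 0.286 with limma) and -1.54 in FET against IVF (SE 0.64, adjusted p = 1.0). Rescaled, these were -1.37 (SE 0.60, adjusted p = 0.291) and -1.37 (SE 0.60, adjusted p = 0.526). The difference from NC rests on about 37 and 69 fragments in NC mice 5 and 6, and 80.6% of the 100-base windows of Gsta1 occur in other transcripts, chiefly of Gm3776 and Gsta2. Gsta4, whose enzyme conjugates the lipid peroxidation product 4-hydroxynonenal, stood at 7.79 ± 2.67 FPKM in the NC mice, 4.42 ± 2.89 in the IVF mice and 4.16 ± 4.44 in the FET mice.

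The theta class acts on small halogenated compounds among others. Gstt1 was at 80.8, 112 and 128 FPKM in the NC mice, 26.2, 85.3 and 157 in the IVF mice, and 35.3, 97.0 and 33.4 in the FET mice. Rescaled it was 861, 809 and 819.9 in the NC mice, 668, 781 and 682 in the IVF mice, and 387, 750.3 and 737 in the FET mice, with all FET and all IVF mice below the NC mice, by little apart from FET mouse 2. Gstt2 stood at 8.15 ± 2.02 FPKM in the NC mice, 8.46 ± 9.26 in the IVF mice and 4.50 ± 3.25 in the FET mice. Gstt3 was at 1.07, 3.86 and 4.64 FPKM in the NC mice, 0.459, 1.64 and 1.29 in the IVF mice, and 0, 1.29 and 0.112 in the FET mice, with a log2 fold change of -1.49 in FET against NC (SE 0.59, adjusted p = 0.298 with limma) and -0.90 in IVF against NC (SE 0.59, adjusted p = 1.0). Rescaled Gstt3 gave -1.24 (SE 0.40, adjusted p = 0.208) and -0.65 (SE 0.40, adjusted p = 0.929). Its annotation overlaps Gm20441 on the same strand.

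Gstz1 encodes maleylacetoacetate isomerase, a step of tyrosine breakdown. It was at 33.1, 9.12 and 13.4 FPKM in the NC mice, 1.94, 4.70 and 56.8 in the IVF mice, and 31.7, 13.6 and 7.07 in the FET mice, with each group spread over a wide range. Its locus overlaps Pomt2 on the other strand, and whether the counting used strand is not given in the sources used here. Gstk1, the kappa class gene, was at 5.01, 22.8 and 28.4 FPKM in the NC mice, 3.43, 11.9 and 16.8 in the IVF mice, and 1.71, 9.57 and 2.13 in the FET mice. The NC and FET groups overlapped through NC mouse 1. The log2 fold change of Gstk1 was -1.85 in FET against NC (SE 0.85, adjusted p = 0.379 with limma) and -1.17 in FET against IVF (SE 0.85, adjusted p = 1.0). Rescaled, it was -1.32 (SE 0.51, adjusted p = 0.251) and -0.94 (SE 0.51, adjusted p = 0.593). Gsto1, the omega class gene tested, stood at 4.72 ± 3.46 FPKM in the NC mice, 8.43 ± 12.0 in the IVF mice and 2.82 ± 2.83 in the FET mice.

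Turning to the UDP-glucuronosyltransferases, as a share of nuclear protein-coding FPKM the 12 Ugt genes summed to 0.298, 0.251 and 0.267% in the NC mice, 0.280, 0.281 and 0.322% in the IVF mice, and 0.253, 0.282 and 0.252% in the FET mice. This share ranged least among the 3 families, and the groups overlapped. Within it, single genes differed in their order between groups.

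Ugt2b5, the most abundant Ugt gene here, was at 102, 98.7 and 133 FPKM in the NC mice, 40.8, 128 and 291 in the IVF mice, and 114, 197 and 56.7 in the FET mice. Rescaled it was 1086, 714 and 851 in the NC mice, 1042, 1176 and 1262 in the IVF mice, and 1244, 1524 and 1250.3 in the FET mice, with every FET mouse above every NC mouse and a log2 fold change of 0.61 (SE 0.32, adjusted p = 0.356 with limma). On the deposited scale the groups overlapped, the log2 fold change was -0.02 (SE 1.09, adjusted p = 0.995), and over 19 fits the fold change ran from -0.45 to 0.65. Of its 100-base windows, 24.7% also occur in Ugt2b38.

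Ugt2b36 was at 70.7, 104 and 111 FPKM in the NC mice, 20.0, 54.4 and 166 in the IVF mice, and 41.2, 53.3 and 24.7 in the FET mice. Ugt2a3 was at 23.7, 30.9 and 39.0 FPKM in the NC mice, 9.98, 24.1 and 72.9 in the IVF mice, and 11.8, 15.2 and 6.93 in the FET mice. Both were lower in every FET mouse than in every NC mouse. Rescaled Ugt2a3 was 253, 223 and 249 in the NC mice, 255, 220.1 and 316 in the IVF mice, and 129, 117.4 and 153 in the FET mice, so that the FET mice stood below all 6 other mice, and the NC and IVF mice overlapped. Its rescaled log2 fold change was -0.82 in FET against NC (SE 0.29, adjusted p = 0.229 with limma) and -0.93 in FET against IVF (SE 0.29, adjusted p = 0.396). Deposited, these were -1.42 (SE 0.96, adjusted p = 0.572) and -1.21 (SE 0.96, adjusted p = 1.0). Over the fits run, FET against NC ranged from -1.65 to -0.82 and FET against IVF from -1.87 to -0.49. Within each mouse, Ugt2a3 divided by Ugt2b5 gave 0.233, 0.313 and 0.292 in the NC mice, 0.245, 0.187 and 0.251 in the IVF mice, and 0.104, 0.0771 and 0.122 in the FET mice. The FET mice were lowest in this ratio, which was chosen after its values had been seen.

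Ugt2b1 was at 24.7, 61.5 and 69.2 FPKM in the NC mice, 18.8, 33.9 and 76.5 in the IVF mice, and 18.7, 36.4 and 9.64 in the FET mice. Ugt2b34 was at 35.3, 29.2 and 35.2 FPKM in the NC mice, 11.3, 40.8 and 82.7 in the IVF mice, and 34.2, 40.1 and 8.09 in the FET mice. For both genes the groups overlapped on the deposited scale, and rescaled Ugt2b1 was lower in every FET mouse than in every IVF mouse. Of the less abundant genes, Ugt2b35 stood at 8.27 ± 1.57 FPKM in the NC mice, 11.6 ± 9.96 in the IVF mice and 5.30 ± 2.604 in the FET mice. Ugt2b37 stood at 2.13 ± 2.11 FPKM in the NC mice, 4.87 ± 5.59 in the IVF mice and 2.66 ± 1.83 in the FET mice. The groups overlapped for both on the deposited scale. Ugt2b38 was at 1.83, 0.797 and 0.864 FPKM in the NC mice, 0.392, 4.02 and 1.80 in the IVF mice, and 0, 0.945 and 0 in the FET mice, with a log2 fold change of -1.11 in FET against IVF (SE 0.59, adjusted p = 1.0 with limma), and -1.09 rescaled (SE 0.47, adjusted p = 0.526).

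The UGT3 enzymes use sugars other than glucuronic acid. Ugt3a2 stood at 10.5 ± 4.00 FPKM in the NC mice, 7.62 ± 5.28 in the IVF mice and 4.49 ± 2.30 in the FET mice. Ugt3a1 was at 3.25, 2.93 and 3.84 FPKM in the NC mice, 0.828, 3.93 and 4.11 in the IVF mice, and 0, 2.78 and 0.520 in the FET mice, below every NC mouse in each FET mouse on the deposited scale, and its log2 fold change was -1.27 in FET against NC (SE 0.63, adjusted p = 0.414 with limma) and -1.0 in FET against IVF (SE 0.63, adjusted p = 1.0). Rescaled, Ugt3a1 gave -0.95 (SE 0.44, adjusted p = 0.313) and -0.86 (SE 0.44, adjusted p = 0.579). Summed, the UGT3 genes were lower in every FET mouse than in every NC mouse on both scales, with rescaled shares of 0.00418% to 0.00761% against 0.00904% to 0.0119%.

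Of the sulfotransferase genes, Sult1a1 encodes the phenol sulfotransferase of liver. It was at 131, 85.2 and 104 FPKM in the NC mice, 20.4, 54.3 and 135 in the IVF mice, and 28.1, 34.6 and 17.6 in the FET mice. Rescaled it was 1402, 617 and 662 in the NC mice, 520.4, 497 and 586 in the IVF mice, and 308, 267 and 387 in the FET mice, with the FET mice lowest, the IVF mice between and the NC mice highest, and no overlap between any pair of groups. The rescaled log2 fold change was -1.36 in FET against NC (SE 0.38, adjusted p = 0.153 with limma), -0.63 in IVF against NC (SE 0.38, adjusted p = 0.926) and -0.73 in FET against IVF (SE 0.38, adjusted p = 0.58). The deposited values were -1.99 (SE 1.04, adjusted p = 0.45), -0.97 (SE 1.04, adjusted p = 1.0) and -1.02 (SE 1.04, adjusted p = 1.0). FET against NC was below 0 in all 19 fits, from -2.31 to -1.36, with adjusted p from 0.113 to 1.0. The other 2 comparisons varied more, from -1.63 to -0.29 in IVF against NC and from -1.69 to -0.36 in FET against IVF. NC mouse 1 stood above both other NC mice on both scales. The locus overlaps Sgf29 on the other strand.

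Sult2a8, whose enzyme sulfates bile acids, was at 83.8, 103 and 107 FPKM in the NC mice, 13.9, 45.8 and 143 in the IVF mice, and 56.0, 65.0 and 33.1 in the FET mice. Every FET mouse was lower than every NC mouse on the deposited scale, and after rescaling every IVF mouse was, at 356 to 623 against 685 to 893, while the FET mice overlapped the NC mice. Its relative Sult2a7 was at 0, 0.716 and 1.59 FPKM in the NC mice, 0.184, 1.76 and 5.13 in the IVF mice, and 0, 0 and 0.267 in the FET mice. The log2 fold change of Sult2a7 in FET against IVF was -1.33 (SE 0.61, adjusted p = 1.0 with limma) and -0.99 rescaled (SE 0.43, adjusted p = 0.526), on about 20 fragments or fewer in every mouse.

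Sult1d1, known to sulfate catecholamines, ranged widely within each group. It was at 98.7, 52.8 and 49.2 FPKM in the NC mice, 16.7, 134 and 284 in the IVF mice, and 187, 26.8 and 15.4 in the FET mice. FET mouse 2 alone was above all NC mice while the other FET mice were below them. Sult1b1, which acts on thyroid hormones, stood at 2.26 ± 0.670 FPKM in the NC mice, 2.95 ± 2.35 in the IVF mice and 2.35 ± 2.75 in the FET mice. Sult5a1 stood at 2.38 ± 0.765 FPKM in the NC mice, 2.08 ± 2.53 in the IVF mice and 3.10 ± 0.641 in the FET mice, and rescaled it was 19.9, 14.5 and 20.8 in the NC mice, 6.26, 9.36 and 21.5 in the IVF mice, and 39.9, 25.2 and 52.7 in the FET mice, with every FET mouse above all 6 other mice. Its locus overlaps Gm20388 on the other strand.

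**Figure D5:**
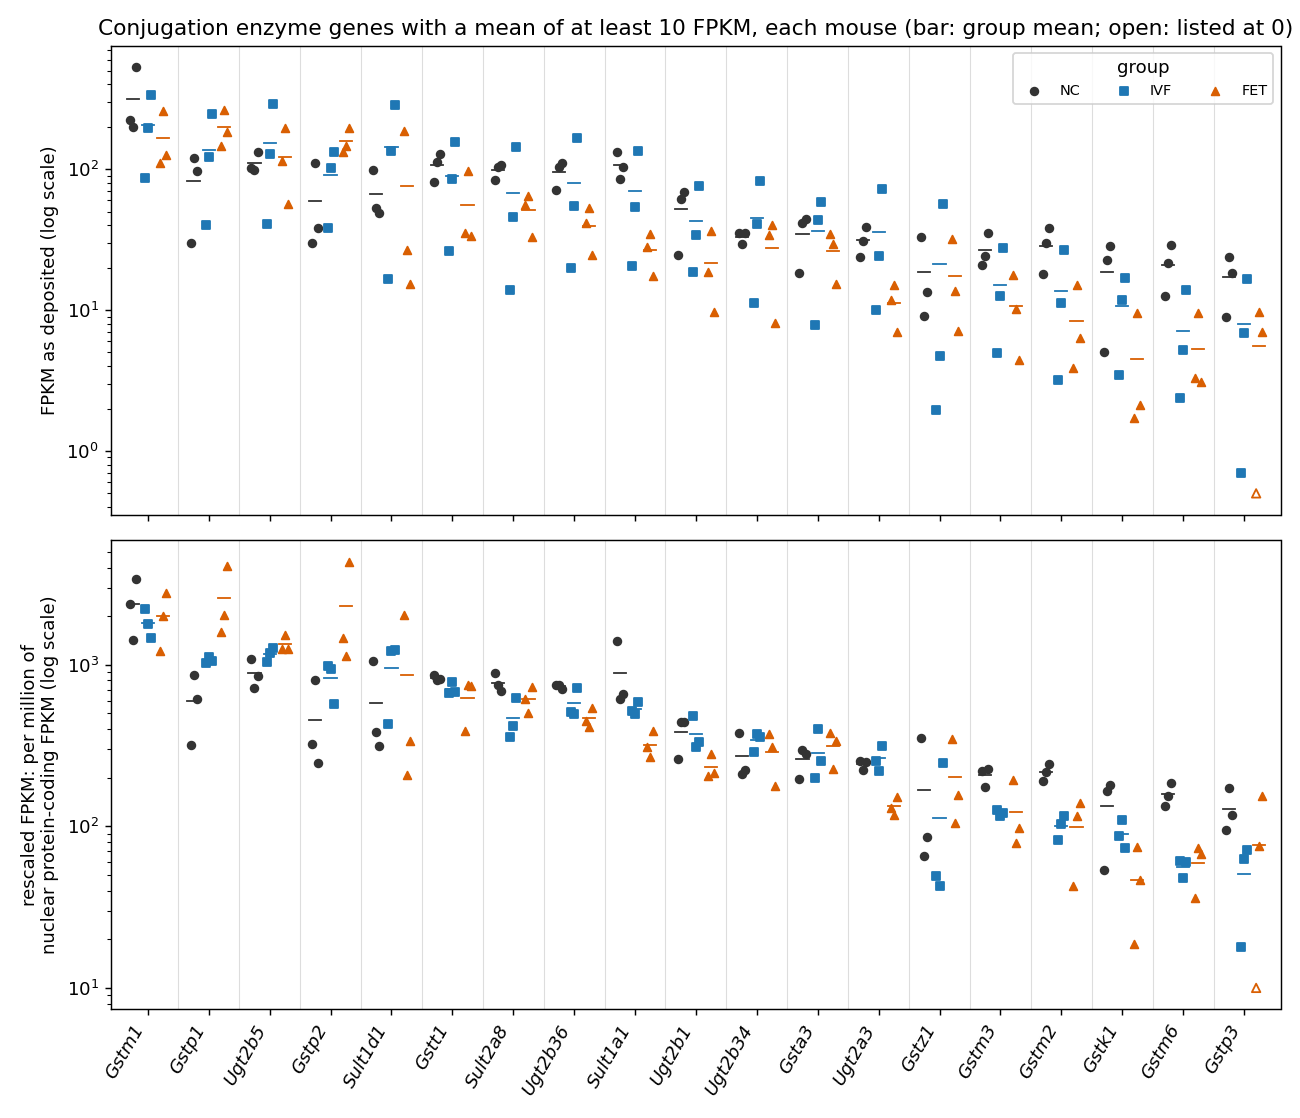
FPKM as deposited (upper panel) and rescaled FPKM (lower panel), both on log axes, of the 19 conjugation genes with a mean of at least 10 FPKM, 1 point per mouse with the group mean as a bar and open points for values listed at 0. In both panels the FET mice lie above the NC mice for Gstp1 and Gstp2, and below them for Gstm2, Gstm6, Sult1a1, Ugt2a3 and Ugt2b36.

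Genes around the conjugation step were read from 4 lists. For cofactor supply (the enzymes and carriers that make UDP-glucuronic acid, PAPS and glutathione), 10 of 12 genes were tested, 0 passed limma's adjusted threshold in either direction, and the median log2 fold change of FET against NC was -0.37 deposited and 0.12 rescaled, so that its direction turned with the scale. The largest was that of Papss2, a PAPS synthase, at -1.63 deposited (SE 0.81, adjusted p = 0.414), and rescaled that of Gclm, the modifier subunit of the enzyme that starts glutathione synthesis, at 1.296 (SE 0.66, adjusted p = 0.35). For other conjugating and detoxifying enzymes, 13 of 17 were tested, 0 passed, the median was -1.34 deposited and -0.77 rescaled, and the largest was Mgst3, a membrane-bound glutathione transferase, at -2.71 (SE 1.0, adjusted p = 0.263) and rescaled at -2.15 (SE 0.93, adjusted p = 0.287). For deconjugation and the mercapturate steps, 2 of 6 were tested, 0 passed, and Acy1 had the largest value at -1.21 (SE 0.71, adjusted p = 0.505), or -0.67 rescaled (SE 0.46, adjusted p = 0.493). For regulators, 11 of 14 were tested, 0 passed on the deposited scale, and the median was -0.77 deposited and -0.16 rescaled, where those over all genes were -0.46 and -0.06. In IVF against NC and in FET against IVF, 0 genes of the 4 lists passed on the deposited or rescaled scale.

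Among the regulators, Nfe2l2 (ENSMUSG00000015839, chr2:75675513-75704641 in GRCm38), which encodes NRF2, had the largest log2 fold change in FET against NC and in IVF against NC. In FET against IVF the largest was that of Keap1, which encodes the protein that holds NRF2 back, at -1.36 (SE 0.61, adjusted p = 1.0 with limma) and rescaled at -1.18 (SE 0.35, adjusted p = 0.36), where Nfe2l2 was at -0.99 and -0.86. The FPKM of Nfe2l2 was 13.5, 35.1 and 37.7 FPKM in the NC mice, 1.85, 4.49 and 10.8 in the IVF mice, and 3.74, 2.65 and 0.364 in the FET mice. Every FET mouse and every IVF mouse was below every NC mouse. Rescaled it was 144, 254 and 241 in the NC mice, 47.3, 41.0 and 47.0 in the IVF mice, and 40.9, 20.5 and 8.02 in the FET mice, and the IVF and FET mice did not overlap either, with 41.0 and 40.9 as the nearest values. In FET against NC the log2 fold change was -3.25 (SE 0.80, adjusted p = 0.0519 with limma) deposited and -2.84 (SE 0.41, adjusted p = 0.0344) rescaled, so that it fell on the rescaled scale. Over 19 fits it ran from -3.95 to -2.34 with adjusted p from 0.0257 to 1.0, and 5 of the 19 called it. Without FET mouse 4 and IVF mouse 2 the rescaled value was -2.46 (adjusted p = 0.097), and with NC mouse 1 as the only NC mouse it was -2.34 (adjusted p = 0.603). The value for IVF against NC was -2.26 (SE 0.80, adjusted p = 0.619) deposited and -1.98 (SE 0.41, adjusted p = 0.476) rescaled. Over the fits run, IVF against NC ranged from -2.78 to -1.35 and FET against IVF from -1.49 to -0.45.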

How the data were processed

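The authors deposited 1 table of FPKM values per gene and mouse, with no counts. The submitters' processing notes name FastQC 0.11.5, STAR 2.5.3a, StringTie 1.3.1c and DESeq2 1.16.1. Their order and settings, the genome build, the annotation and the strandedness are not given in the sources used here. The conjugation genes, the gene lists and the tests were chosen with earlier results of these data known.

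The tool limma 3.58.1 (R 4.3.3) fitted 1 model of the 3 groups to log2(FPKM + 1), with a variance trend. It took in the 6755 genes whose mean over the 9 mice reached 1 FPKM. Two-sided p-values were adjusted over all 6755 genes (Benjamini-Hochberg) and counted as called under 0.05. Fold changes on this scale understate those of low genes. Values in every mouse are given for genes with a mean of at least 10 FPKM or listed at 0 in some mouse, and means ± SD for the other tested genes. Fold changes are given for the 5 conjugation genes with the smallest unadjusted p in each comparison of deposited values, for others named as chosen after their values were seen and, in each list, for the largest. Depth was estimated from steps of up to 8 fragments between low FPKM values (tolerance 2%). Only 43.6% to 51.9% of low values fell within it, so these depths are approximate. Promoters were aligned with Biopython 1.88. Alternatives were other scalings, pseudocounts, filters and fits, and leaving out mice. Rescaling combined with leaving out FET mouse 4 and IVF mouse 2, with a pseudocount of 0.1 or with NC mouse 1 alone was added after seeing the data, as were the counts of non-overlapping genes without these mice or FET mouse 2 and the pi class ratio without FET mouse 4.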

Additional observations from a re-analysis of the deposited data

Results flagged for a closer look

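A processed pseudogene outside the conjugation genes, Gstp-ps on chromosome 1, had a signal above that in the control group. Its lowest FPKM among the FET mice was 80.8, against a highest of 75.7 among the NC mice. The values were 24.1, 75.7 and 43.4 in the NC mice, 25.8, 71.8 and 138 in the IVF mice, and 80.8, 169 and 125 in the FET mice. Its sequence overlaps with that of the pi class, since 23.3% of the 100-base windows of Gstp2 and 10.8% of those of Gstp1 occur in it. Whether its fragments come from these genes was not tested.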

How the results depend on the processing

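Every FET library was shallower than every other library, 3 to 8 of the 36 genes tested were listed at 0 in each FET mouse and 3 in NC mouse 1, and 8 to 14 had under 10 estimated fragments in each FET mouse and 12 in IVF mouse 2, so that differences in genes such as Gsta1, Gstm4 and Gstt3 rest on few fragments. Leaving out 1 mouse moved the median over the conjugation genes to between -1.25 and -0.79 in FET against NC, between -1.01 and 0.12 in IVF against NC and between -1.14 and 0.10 in FET against IVF, so that the direction of the last 2 rested on single mice. The number of genes called over all 6755 did not hold. In FET against NC it was 16, and it became 26 with median-ratio scaling, 5 with a mean of at least 10 FPKM, 10 on rescaled values without FET mouse 4 and IVF mouse 2, 6 with NC mouse 1 as the only NC mouse, 3 when such values were also rescaled, and 0 without a filter, without a variance trend or with only the 2 groups compared. Leaving out 1 mouse gave 1 to 83, the highest without NC mouse 1. In IVF against NC it was 4, and it became 2 with a mean of at least 10 FPKM or with NC mouse 1 alone, and 0 with a pseudocount of 0.1, no filter, median-ratio scaling, quantile normalization, no trend, only 2 groups and each rescaled fit. Leaving out 1 mouse gave 0 to 24. In FET against IVF it was 6, and it became 0 without a filter, without a trend, with only the 2 groups and on rescaled values without FET mouse 4 and IVF mouse 2. Leaving out 1 mouse gave 0 to 10. The causes were not tested.

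The number of conjugation genes called stayed at 0 in these fits, except for 1 (Gsta2, log2 fold change -3.33) in FET against NC without FET mouse 2, so that leaving out 1 mouse gave 0 to 1. Gsta1 in FET against NC became 0 with NC mouse 1 as the only NC mouse, deposited or rescaled, because NC mouse 1 and the FET mice are all listed at 0. The mouse numbers 2, 3 and 4 are shared by the IVF and FET groups, but the correlations of same-numbered mice were -0.13, 0.02 and -0.26, so they were not treated as pairs. With the number as a replicate block, 2 genes and 0 conjugation genes were called in FET against IVF.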
